A study of Mus musculus with 25 samples.

Results

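Lung interstitial macrophages were set against lung fibroblasts of control mice, to ask which programmes, receptors, ligands and transcription factors separate 2 cell types sorted from the same organ. The comparison takes all 6 control lung libraries, 3 of macrophages and 3 of fibroblasts, of the 25 libraries of the series, and all 11867 genes of the lung table. No measured value was used to choose them. Both groups came from C57BL/6 mice of the genotype Mrp8_WT; Rosa26_DTR, which carry a diphtheria toxin receptor allele at the Rosa26 locus and no Mrp8 Cre. Mrp8 is another name of S100a8, whose promoter drives Cre chiefly in neutrophils of the depleted mice of the series (Mrp8_CRE; Rosa26_DTR). All mice, these controls included, received diphtheria toxin at 10 µg per kg into the peritoneum for 7 days, so neither cell type comes from untreated animals. Macrophages were sorted as live cells positive for CD45, CD68 and F4/80, negative for CD11c and high in CD11b. Fibroblasts were sorted as live PDGFRA-positive cells that lacked CD45, CD31 and EPCAM. The labels give neither the age of the mice nor whether replicates are separate animals, so the p-values here reflect the variation among the libraries alone, part of which may be technical.

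Macrophages are leukocytes that engulf microbes and debris, degrade them in lysosomes, present their peptides on MHC class II and release chemokines that draw in other leukocytes. They depend on signals through the receptor CSF1R, whose ligands stromal cells can supply. Fibroblasts are mesenchymal cells that lay down and remodel the collagen, elastic and proteoglycan matrix of the alveolar wall, and send fibroblast growth factors, Wnt proteins and bone morphogenetic proteins to the neighbouring epithelium. The 2 cell types lie side by side in the lung interstitium.

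The unit of the deposited values is a normalised signal, which in each library equals the estimated number of reads plus 0.5, multiplied by a constant. The macrophage libraries held 232914, 385925 and 189682 estimated reads and the fibroblast libraries 157767, 144442 and 247341. At this depth 11.0 to 25.5% of genes per macrophage library and 12.7 to 19.2% per fibroblast library were at 0 reads. Over all genes, Pearson's r of the log2 values was 0.815 to 0.849 among macrophage libraries, 0.825 to 0.830 among fibroblast libraries and 0.454 to 0.533 between them, as a description across genes that are not independent. The first principal component held 63.8% of the variance and separated the cell types. Levels were not divided by gene length, so values are compared between libraries for the same gene and never between genes.

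Of 11867 genes, 2757 (23.2%) passed the test in limma, at a false discovery rate of 0.05 after Benjamini-Hochberg adjustment. In macrophages 1452 of them (12.2% of genes tested) were higher and 1305 (11.0%) were lower than in fibroblasts. The median log2 fold change over all genes was −0.08, close to 0, and the absolute log2 fold change of a called gene was at least 0.76. A difference of more than 4-fold was fitted for 1022 of the genes called higher and 1025 of those called lower. No read was found in any fibroblast library for 370 of the genes called higher, and none in any macrophage library for 331 of those called lower. When the test asked for a change beyond 2-fold (a log2 limit of 1), 686 genes (5.78%) were called higher and 554 (4.67%) lower. Every fit that left out 1 of the 6 libraries called 1779 of the genes in common, 983 of them higher and 796 lower.

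**Figure D1:**
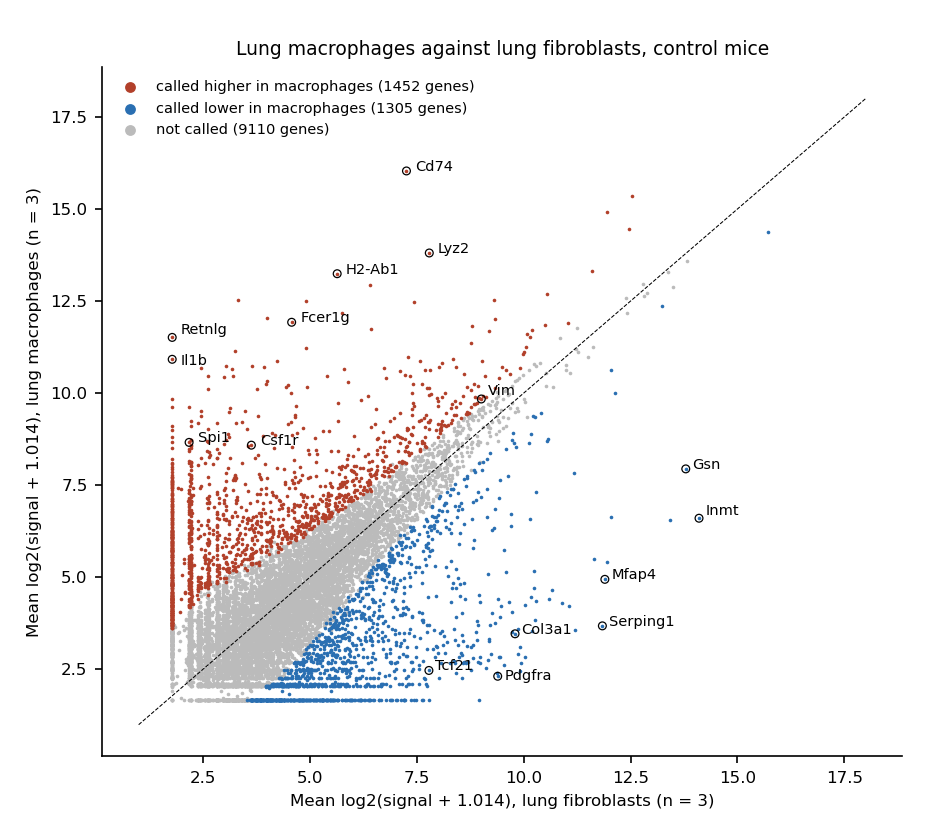
Mean log2 signal of each gene in the 3 macrophage libraries (vertical axis) against the 3 fibroblast libraries (horizontal axis), with 1452 genes called higher in macrophages, 1305 called lower and the rest not called; the dashed line marks equal signal. The points at the left and lower edges are genes with 0 reads in fibroblasts or in macrophages, such as Retnlg and Il1b at the left edge.

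The 15 genes called higher with the lowest p were Cd74, H2-Eb1, Retnlg, H2-Aa, H2-Ab1, Fcer1g, Il1b, Ctss, S100a9, Ccl6, Lyz2, C1qa, C1qc, Wfdc17 and Srgn. Cd74 encodes the invariant chain that escorts MHC class II molecules. Its signal was 52248, 99012 and 58313 in macrophage libraries 1, 2 and 3, against 95.5, 263 and 141 in fibroblast libraries 1, 2 and 3. The groups lay far apart, with a difference in log2 signal of 8.77 ± 0.30 (SE, adjusted p = 2.74e-14). Fcer1g (ENSMUSG00000058715, chromosome 1, 171229572 to 171234365, minus strand; GRCm38, as all positions here), the signalling chain shared by Fc receptors, stood at 4097, 3452 and 4157 in macrophages and 19.1, 31.8 and 19.6 in fibroblasts, 7.35 ± 0.29 on the log2 scale (SE, adjusted p = 6.17e-14). Lyz2 (ENSMUSG00000069516, chromosome 10, 117277331 to 117282321, minus strand), the lysozyme gene of myeloid cells, stood at 10917, 11815 and 22783 against 262, 308 and 134. Its difference was 6.01 ± 0.31 (SE, adjusted p = 5.06e-12), and reads of the near-identical neighbour Lyz1 may be split between the genes. Retnlg and S100a9 are known as neutrophil genes and are described with the markers of other cells.

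The 15 genes called lower with the lowest p were Gsn, Mgp, Inmt, Mfap4, Gpx3, Npnt, Gstm2, Fhl1, Gpc3, Mxra8, Sparc, Aldh1a1, Ogn, Mettl7a1 and Serping1. Inmt (ENSMUSG00000003477, chromosome 6, 55170626 to 55175043, minus strand), an N-methyltransferase of lung, had a signal of 74.6, 175 and 68.3 in macrophages, against 21761, 21739.7 and 11488 in fibroblasts. Every fibroblast library was higher, and macrophages over fibroblasts gave −7.50 ± 0.32 on the log2 scale (SE, adjusted p = 2.1e-13). Gsn (ENSMUSG00000026879, chromosome 2, 35256380 to 35307892, plus strand), which encodes the actin-severing protein gelsolin, stood at 201, 260.2 and 282 in macrophages and 16073, 13974 and 12699.8 in fibroblasts, a difference of −5.85 ± 0.23 (SE, adjusted p = 6.17e-14). Serping1 (ENSMUSG00000023224, chromosome 2, 84765387 to 84775444, minus strand), the inhibitor of the first complement component, had the most negative fold change of all called genes. Its signal was 29.4, 16.5 and 2.97 in macrophages, against 4572, 4471 and 2419 in fibroblasts, −8.16 ± 0.50 on the log2 scale (SE, adjusted p = 6.55e-11). Aldh1a1 makes retinoic acid, Gpx3 is a secreted glutathione peroxidase and Mgp a matrix protein that limits calcification, and all 3 were among those called lower.

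Genes of the gates and of cell identity followed the labels, with few exceptions. Ptprc, the gene of CD45, had a signal of 459, 337 and 478 in macrophages and 8.19, 2.89 and 1.78 in fibroblasts. Cd68, a lysosomal glycoprotein, stood at 1078, 1464 and 1382 against 30.02, 20.2 and 5.35, and Adgre1, the gene of F4/80, at 197, 271 and 336 against 2.73, 8.67 and 1.78. Itgam, the gene of CD11b, stood at 269, 190.4 and 168 in macrophages and had no read in fibroblasts. Pdgfra, a receptor for platelet-derived growth factor and the positive fibroblast gate, stood at 11.3, 1.498 and 2.97 in macrophages, against 575, 582 and 908 in fibroblasts. In each of these 5 genes all libraries of 1 cell type lay above all of the other, as they did for 4327 of all 11867 genes (36.5%). Of 20 macrophage identity genes 19 were called higher, with a median log2 fold change of 6.34 (bounded 6.32). A bounded median, given in brackets wherever it differs, sets members with 0 reads in 1 group and more than 3 in the other at their bound against 3 reads. Where that bound is not above 1-fold the member is set at 0, and all other members keep their fitted value. The one not called was Mertk, a receptor for apoptotic cells, at 38.4, 19.5 and 44.5 in macrophages and 46.4, 20.2 and 30.3 in fibroblasts. Of 18 fibroblast identity genes 16 were called lower, with a median of −5.74 (bounded −5.61).

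The exceptions among identity genes were few. Vim, the intermediate filament of mesenchymal cells that leukocytes use as well, was higher in macrophages, at 1205, 845 and 757 against 417, 402 and 815 in fibroblasts. The groups overlapped, since macrophage library 3 lay below fibroblast library 3. The difference was 0.83 ± 0.29 on the log2 scale (SE, adjusted p = 0.0431), and it was not called without macrophage library 1 (0.63), macrophage library 2 (0.89), fibroblast library 1 (0.68) or fibroblast library 2 (0.65), with the fitted log2 fold change in brackets. Pdgfrb, more typical of pericytes, had no read in macrophages and 9 reads in fibroblasts and was not called (adjusted p = 0.0675). Itgax, the gene of CD11c, which the macrophage gate excludes, had 59.1 reads in macrophages and none in fibroblasts. Its signal was 85.2, 99.7 and 50.5 in the macrophage libraries. Pecam1, the gene of CD31, which the fibroblast gate excludes, stood at 258, 277 and 94.7 in macrophages and 266, 145 and 204 in fibroblasts and was not called (adjusted p = 0.919). Of the other endothelial genes listed, Calcrl and Ramp2, which form a receptor for adrenomedullin, had 102.6 and 24.8 reads over the macrophage libraries and 32 and 17.7 over the fibroblast libraries. Cdh5, Cldn5 and Vwf, of endothelial junctions and granules, had 20, 13.1 and 11 reads in macrophages and 1, 3 and 2 in fibroblasts. None of these 5 was called. Epcam had 20 reads over the macrophage libraries and none over the fibroblast libraries.

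Markers of other cells were present in the macrophage libraries, for which the labels give a sorting purity of over 95%. Neutrophil genes made up 0.807 to 1.71% of estimated reads in macrophage libraries and 0.00215 to 0.0078% in fibroblast libraries, and 12 of 12 were called higher. Retnlg, a resistin-like gene of granulocytes, stood at 2934, 2469 and 3451 in macrophages with no read in fibroblasts, which makes it at least 602-fold higher when the fibroblast group is set to a floor of 3 reads. S100a8 stood at 5155, 3741 and 10656 in macrophages and 8.19, 2.89 and 26.7 in fibroblasts, and Ly6g, the defining surface marker of neutrophils, at 16.3, 22.3 and 27.4 from 14.2 reads in all. Monocyte genes took 0.669 to 1.26% in macrophages and 0.036 to 0.0465% in fibroblasts, with 14 of 14 called higher. Alveolar macrophage genes took 0.565 to 0.869% against 0.0149 to 0.0394%, with 13 of 14 called higher, and Siglecf, a marker that defines them, had 32 reads in macrophages and 1 in fibroblasts. B and plasma cell genes took 0.0809 to 0.202% against 0 to 0.00138%, and all 7 were called higher. Jchain, of plasma cells, had 0, 68 and 25 reads in macrophage libraries 1, 2 and 3 and none in fibroblasts, and was not called without macrophage library 2 (2.70), macrophage library 3 (2.92) or fibroblast library 3 (3.61). Lung epithelial genes took 0.207 to 0.898% in macrophages and 0.056 to 0.227% in fibroblasts, and surfactant gene Sftpc, made by alveolar type 2 cells, was at 6506, 6881 and 1535 against 925, 1361 and 216. Endothelial genes took 0.0185 to 0.0621% against 0.0325 to 0.0445% and erythroid and platelet genes 0.0438 to 0.0766% against 0 to 0.176%. Of 9 dendritic cell genes 6 were called higher, among them Cd209a with 630.7 reads against 0, and of 5 T and NK cell genes 2 were. Of 6 pericyte genes 2 were called lower. Of 9 mesothelial genes listed only 3 were analysed, of which 2 were called lower and 1, Krt19, higher. Upk1b, a mesothelial gene, had 3 reads in macrophages and 378.4 in fibroblasts. The part of these other cells in the differences below was not tested, and in bulk libraries fewer cells of a type and less RNA per cell cannot be told apart.

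**Figure D2:**
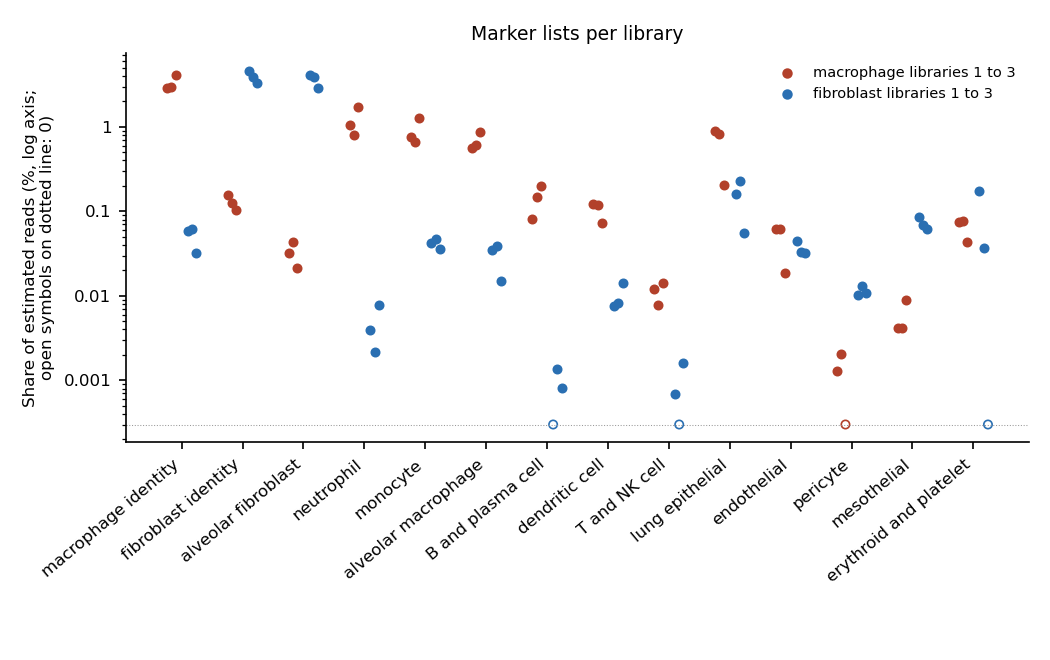
Share of estimated reads (percent, log axis) taken by each marker list in the 3 macrophage libraries (left of each pair) and the 3 fibroblast libraries (right); open symbols on the dotted line mark a share of 0. Neutrophil, monocyte, alveolar macrophage and B cell genes were higher in every macrophage library than in any fibroblast library, whereas endothelial shares overlapped.

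Within the macrophage libraries, genes of both described interstitial subsets were present. Of 14 genes of the perivascular subset 12 were called higher, with a median log2 fold change of 3.83 (bounded 3.61). Folr2, a folate receptor, stood at 183, 151 and 181 in macrophages and had no read in fibroblasts. Lyve1, a hyaluronan receptor that is on the endothelial list too, had 45 and 0 reads. Pf4, a chemokine that platelets hold too, stood at 667, 701 and 472 in macrophages and 8.19, 2.89 and 1.78 in fibroblasts. Gas6, a bridge between dying cells and their receptors, is listed with this subset but was lower in macrophages, at 2.26, 25.5 and 8.91 against 161, 147 and 90.9, −3.78 ± 0.61 on the log2 scale (SE, adjusted p = 7.24e-05). Of 12 genes of the antigen-presenting subset 10 were called higher, among them Cx3cr1 at 236, 159 and 134 against 18.8, 2.89 and 5.85. Another was Ccr2, which is on the monocyte list too and had 364.3 reads against none. Tmem119, known from microglia, went against the antigen-presenting list, at 24.9, 22.5 and 32.7 in macrophages and 172, 130.0 and 187 in fibroblasts (−2.57 ± 0.39, SE, adjusted p = 3.51e-05). Its groups did not overlap.

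All 18 genes of the alveolar fibroblast list were lower in macrophages, with a median of −5.66 (bounded −5.57). A contrast with macrophages cannot tell fibroblast subtypes apart, and 16 of 18 fibroblast identity genes were lower as well. Npnt, an integrin ligand of the alveolar basement membrane, stood at 15.8, 25.5 and 20.8 in macrophages against 1660.1, 1213 and 1852 in fibroblasts, −6.18 ± 0.32 on the log2 scale (SE, adjusted p = 5.15e-12). Itga8, the integrin chain that binds the Npnt product, stood at 6.78, 10.5 and 2.97 against 625, 482 and 1069, and Fmo2, a lung monooxygenase, at 6.78, 52.4 and 2.97 against 2268, 2042 and 2818. The smallest change of the list was that of Gyg, which primes glycogen synthesis, at −1.56 ± 0.30 (SE, adjusted p = 0.000403). Adventitial genes were less uniform, with 8 of 14 called lower and 6 not called. Among the called ones were Mfap5 at 47.5, 13.5 and 8.91 against 1187, 1043 and 911 and Clec3b, which had 1 and 67.5 reads. Of 8 myofibroblast and contractile genes 6 were called lower, while Acta2, the smooth muscle actin gene, stood at 20.3, 25.7 and 50.5 in macrophages and 67.2, 26.0 and 23.2 in fibroblasts and was not called (adjusted p = 0.835).

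Transcription factors split by lineage. Of 29 genes on the macrophage list 20 were called higher and none lower, with a median log2 fold change of 2.07 (bounded 1.93), beside −0.08 over all genes. Spi1 (ENSMUSG00000002111, chromosome 2, 91082390 to 91115756, plus strand) encodes PU.1, the factor on which the myeloid lineage depends. It had a signal of 317, 343 and 609 in macrophages and 2.73, 2.89 and 5.35 in fibroblasts. These rest on 285.6 and 1 reads, a ratio of 251 (95% interval 44.8 to 9979). Ikzf1, of lymphoid and myeloid cells, had 71 reads in macrophages and none in fibroblasts, at least 20.8-fold higher against the floor of 3 reads. Fli1, an ETS factor of blood and endothelium, stood at 201, 292 and 175 against 8.19, 8.67 and 8.91 (4.51 ± 0.44, SE, adjusted p = 6.69e-08). Irf5, which drives inflammatory cytokines, stood at 124, 91.4 and 74.2 in macrophages and 2.73, 20.2 and 5.35 in fibroblasts. In all of these the macrophage libraries lay above the fibroblast libraries. Cebpb, a factor of macrophages and of stromal stress responses, differed less, at 345, 481 and 489.9 against 156, 153 and 141 (1.53 ± 0.29, SE, adjusted p = 0.000356). Irf8, of the monocyte lineage, stood at 137, 103 and 139.6 in macrophages and 79.1, 67.0 and 65.5 in fibroblasts, without overlap, but was not called (adjusted p = 0.0982). Zeb2, at 174, 205 and 122 against 89.8, 66.4 and 187, and Maf, at 6.78, 31.5 and 32.7 against 46.4, 43.3 and 66.0, were not called either, and their groups overlapped for Zeb2 alone.

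On the lung mesenchymal list 24 of 35 factors were lower in macrophages, with a median of −2.58 (bounded −2.41). Nr2f2, a nuclear receptor of mesenchyme and veins, stood at 20.6, 10.5 and 2.97 in macrophages and 500.4, 511 and 793 in fibroblasts (−5.88 ± 0.49, SE, adjusted p = 6.58e-09). Nfib, which acts in lung maturation, stood at 6.78, 10.5 and 2.97 against 433, 315 and 339 (−5.66 ± 0.46, SE, adjusted p = 4.78e-09). Tcf21, a marker of lipofibroblasts, had 2 reads in macrophages and 141.6 in fibroblasts, a ratio of 80.4 (95% interval 21.9 to 672). Foxf2, a target of hedgehog signalling, had none and 54.1, at least 20.5-fold lower in macrophages against the floor. Nfia, of the same family as Nfib, was well detected in both cell types, at 86.9, 76.4 and 39.3 in macrophages against 423, 315 and 721 in fibroblasts, and was called lower (−2.82 ± 0.37, SE, adjusted p = 4.75e-06). Of 9 Hox genes, which record position along the body axis, 6 were called lower and none higher. Hoxa5, which lung development needs, had 2 reads in macrophages and 57.7 in fibroblasts, and Hoxb5 had 0 and 35.

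Only Ebf1 and Tcf7l2 on the mesenchymal list went the other way. Ebf1, a factor of B cells as well as of stromal cells, stood at 47.5, 61.4 and 50.5 in macrophages, against 2.73, 2.89 and 23.2 in fibroblasts (2.93 ± 0.70, SE, adjusted p = 0.00352). The B cell genes Cd79a and Ms4a1 had 46 and 45.5 reads over the same macrophage libraries and 0 each over the fibroblast libraries. Their part in the Ebf1 signal was not tested. Tcf7l2, a factor of the Wnt pathway, stood at 518, 961 and 763 against 336, 419 and 483 (0.83 ± 0.28, SE, adjusted p = 0.0348) and was not called without macrophage library 2 (0.62), macrophage library 3 (0.79), fibroblast library 1 (0.69) or fibroblast library 2 (0.84). In the same contrast in depleted mice neither was called, with Ebf1 at −0.54 and Tcf7l2 at 0.12 (limma, adjusted p = 0.672 and 0.756).

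**Figure D3:**
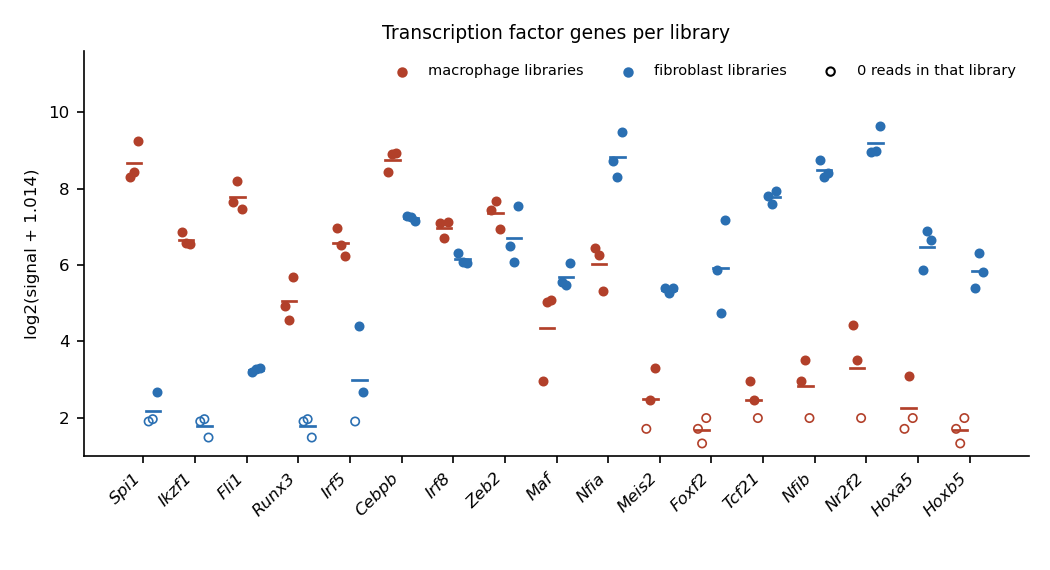
log2 signal of 17 transcription factor genes in each macrophage library (left of each pair) and each fibroblast library (right), with bars at the mean of 3 and open symbols for 0 reads. Spi1, Ikzf1 and Fli1 were high in every macrophage library and Tcf21, Nfib and Nr2f2 in every fibroblast library, while the groups lay close together for Irf8, Zeb2 and Maf.

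The promoters of the called genes were searched for 5 short motifs on both strands, from 250 bases before to 50 after each start in RefSeq (GRCm38.p6). Of 11091 promoters of 8678 genes, 3.53% held GAGGAAGT, a form of the site that PU.1 and related ETS factors bind. The share was 8.08% (115 of 1424 promoters) for genes called higher in macrophages and 2.37% (30 of 1265) for genes called lower. TGANTCA, the AP-1 site, was found in 8.43% and 6.56%, against 5.52% of all. ACATTCC, the TEAD site, was found in 2.46% of promoters of genes called higher and 4.98% of those called lower, against 2.79% of all. TATAAA was found in 12.4% and 8.93%, against 7.72% of all, and GGGCGG, the GC box, in 48.5% and 61.9%, against 60.5% of all. A match of letters is not evidence of binding, and some genes have several overlapping promoters. No motif here contains another.

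The promoters below belong to 3 genes of the macrophage lists with the ETS letters and 2 of the fibroblast lists with the TEAD letters, and were picked after the matches were known, to show where the letters lie. Each runs from 250 bases before to 30 after the start, 5′ to 3′ on the gene's strand, and capitals mark the motif, which reads ACTTCCTC or GGAATGT where it lies on the opposite strand. In Ctss (chr3:95526536-95526815, plus strand), the cathepsin that trims the invariant chain, the match begins 2 bases before the start. In C1qc (chr4:136892885-136893164, minus strand), a chain of complement C1q, it begins 195 bases before the start, and in Cd53 (chr3:106790120-106790399, minus strand), a leukocyte tetraspanin, 6 bases after it. In Col3a1 (chr1:45311288-45311567, plus strand), the type III collagen chain, the TEAD letters begin 169 bases before the start on the same strand, and in Ogn (chr13:49607765-49608044, plus strand), a small leucine-rich proteoglycan, 86 bases before it on the opposite strand.
Ctss: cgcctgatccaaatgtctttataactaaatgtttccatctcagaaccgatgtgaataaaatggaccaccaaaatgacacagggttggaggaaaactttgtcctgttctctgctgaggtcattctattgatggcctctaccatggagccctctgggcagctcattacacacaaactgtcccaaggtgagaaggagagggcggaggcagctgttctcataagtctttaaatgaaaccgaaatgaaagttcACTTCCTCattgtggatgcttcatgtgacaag
C1qc: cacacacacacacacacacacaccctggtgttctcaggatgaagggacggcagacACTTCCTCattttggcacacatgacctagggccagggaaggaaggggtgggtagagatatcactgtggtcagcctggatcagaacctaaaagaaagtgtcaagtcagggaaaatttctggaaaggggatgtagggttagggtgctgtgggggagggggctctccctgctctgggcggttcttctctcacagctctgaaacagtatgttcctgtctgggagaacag
Cd53: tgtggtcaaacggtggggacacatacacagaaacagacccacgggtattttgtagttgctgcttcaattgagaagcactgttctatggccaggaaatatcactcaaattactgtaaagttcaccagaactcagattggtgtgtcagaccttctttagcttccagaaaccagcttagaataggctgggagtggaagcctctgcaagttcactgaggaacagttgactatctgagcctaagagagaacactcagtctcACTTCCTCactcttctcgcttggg
Col3a1: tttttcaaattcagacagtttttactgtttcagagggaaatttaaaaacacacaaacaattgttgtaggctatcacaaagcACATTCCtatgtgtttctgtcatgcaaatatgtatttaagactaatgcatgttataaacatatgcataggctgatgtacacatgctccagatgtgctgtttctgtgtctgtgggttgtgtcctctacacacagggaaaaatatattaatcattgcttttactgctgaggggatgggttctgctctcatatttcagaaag
Ogn: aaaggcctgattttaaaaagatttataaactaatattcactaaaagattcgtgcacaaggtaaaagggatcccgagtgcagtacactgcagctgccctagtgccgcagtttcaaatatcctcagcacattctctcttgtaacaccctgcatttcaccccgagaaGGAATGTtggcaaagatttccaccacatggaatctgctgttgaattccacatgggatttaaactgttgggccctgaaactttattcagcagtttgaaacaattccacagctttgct
Ctss stood at 3919.7, 4496 and 5502 in macrophages and 57.3, 43.3 and 58.8 in fibroblasts (6.42 ± 0.26, SE, adjusted p = 1.09e-13). Cd53 stood at 1462, 1591 and 2039 against 35.5, 8.67 and 8.91 (6.79 ± 0.42, SE, adjusted p = 7.09e-11). C1qc had 1154.7 reads in macrophages and 2 in fibroblasts, a ratio of 508 (95% interval 140.4 to 4203). Col3a1 was lower in macrophages, at 6.78, 16.5 and 8.91 against 1196, 689 and 857 (−6.33 ± 0.39, SE, adjusted p = 6.9e-11), and so was Ogn, at 6.78, 19.5 and 8.91 against 1159.9, 823 and 1656 (−6.64 ± 0.40, SE, adjusted p = 4.92e-11).

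Receptors of innate recognition were macrophage genes. All 28 Fc receptor and ITAM signalling genes were called higher, with a median log2 fold change of 4.49 (bounded 4.31), beside a background of 12.2% called higher. Fcgr3, the low-affinity activating IgG receptor, stood at 948, 1818 and 2408 in macrophages against 18.3, 2.89 and 8.91 in fibroblasts (7.47 ± 0.47, SE, adjusted p = 1.06e-10). Tyrobp, the adaptor DAP12, stood at 2285, 1709.5 and 3430.2 against 51.9, 20.2 and 23.2 (6.30 ± 0.35, SE, adjusted p = 1.72e-11). Syk, the kinase these receptors share, had 52.0 reads in macrophages and 0 in fibroblasts. Of 20 Toll-like receptor genes and adaptors 13 were called higher and none lower. Cd14, the co-receptor for lipopolysaccharide, stood at 626, 1563 and 1371 against 24.6, 14.4 and 5.35, and the RNA sensors Tlr7 and Tlr13 had 82 and 76.9 reads in macrophages and 0 in fibroblasts. The other 7 were not called.

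Chemokine and complement receptors followed the same direction. Of 11 chemokine receptors 10 were called higher and none lower, with a median of 4.11 (bounded 3.69). Ccr2, which draws monocytes into tissue, stood at 510.1, 484 and 543 in macrophages and was at 0 reads in fibroblasts, at least 107-fold higher against the floor. Ccr1 had 100 reads against 0, and Cxcr4, the receptor of CXCL12, 44.0 against 0. Cxcr2, which guides neutrophils, stood at 188, 330.5 and 308 against 15.1, 15.02 and 13.5 (4.11 ± 0.40, SE, adjusted p = 6.92e-08). Of 12 complement and formyl peptide receptors 9 were called higher. C5ar1, the anaphylatoxin receptor, stood at 242, 298 and 288, with 1 read in fibroblasts, and Itgb2, the beta chain of the leukocyte integrins, at 423, 376 and 466 against 8.19, 8.67 and 5.35. Cd59a, which protects cells from complement lysis, was the one lower member, with 0 reads in macrophages and 53.8 in fibroblasts, at least 20.4-fold lower against the floor.

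Cytokine receptors were divided between the cell types, with 14 of 34 higher in macrophages and 6 lower. Csf1r, the receptor of CSF1 and IL34, stood at 412, 440.5 and 312 against 8.19, 14.4 and 12.5 (4.95 ± 0.40, SE, adjusted p = 3.41e-09). Il2rg, the common gamma chain, had 323.7 reads against 0, and Il1r2, the decoy receptor of interleukin 1, 307.0 against 1.99. Il1r2 is also on the neutrophil list, and its log2 fold change was 6.09 in control mice and 2.54 in depleted mice. The part of neutrophils in its signal was not tested. Osmr, the oncostatin M receptor, had 0 reads in macrophages and 45 in fibroblasts, at least 17.0-fold lower against the floor. Il11ra1 had 1.22 and 98.4, a ratio of 91.6 (95% interval 19.5 to 4441) for fibroblasts over macrophages, and Il1r1, the signalling receptor of interleukin 1, 1 and 24, a ratio of 27.3 (95% interval 4.45 to 1121). Lepr, the leptin receptor, stood at 2.26, 10.5 and 32.7 against 84.6, 83.8 and 126 (−3.17 ± 0.65, SE, adjusted p = 0.000852).

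Receptor tyrosine kinases and developmental pathways leaned to fibroblasts. Of 28 receptor tyrosine kinases 13 were lower in macrophages and 2 higher, with a median of −2.02 (bounded −1.94). Besides Pdgfra, Ddr2, a collagen receptor, had 2 reads in macrophages and 83.8 in fibroblasts, and Fgfr4, a fibroblast growth factor receptor, 0 and 50. Fgfr1 stood at 74.2, 19.5 and 2.97 in macrophages against 188, 124 and 144 in fibroblasts (−3.04 ± 0.68, SE, adjusted p = 0.00193). The 2 higher were Csf1r and Axl, a receptor of GAS6, at 269, 196 and 134 against 40.9, 43.3 and 83.8 (1.84 ± 0.39, SE, adjusted p = 0.00119). Of 15 Wnt receptors and modulators 12 were lower and none higher. Gpc3, a glypican that modulates Wnt and hedgehog signals, stood at 15.8, 16.2 and 8.91 against 1046, 1049 and 1681 (−6.43 ± 0.35, SE, adjusted p = 1.25e-11), and Znrf3, which removes Wnt receptors from the membrane, at 42.9, 46.4 and 2.97 against 308, 235 and 423 (−3.95 ± 0.64, SE, adjusted p = 6.62e-05). Of 18 receptors and inhibitors of the TGF-beta and BMP pathways 10 were lower. Tgfbr2 stood at 56.5, 133 and 91.6 against 270.2, 269 and 436 (−1.83 ± 0.35, SE, adjusted p = 0.000487), whereas its partner Tgfbr1 was higher in macrophages, at 147, 157 and 145 against 40.9, 37.6 and 55.3 (1.75 ± 0.37, SE, adjusted p = 0.00108). Of 13 hedgehog and Notch genes 6 were lower, among them the hedgehog receptor Ptch1 at 20.3, 1.498 and 2.97 against 68.2, 49.1 and 87.3 (−3.50 ± 0.72, SE, adjusted p = 0.000852). Notch2 was the one higher, at 1.07 ± 0.34 (SE, adjusted p = 0.025), and was not called without macrophage library 1 (0.99), macrophage library 2 (1.02) or fibroblast library 2 (0.67).

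Adhesion and uptake receptors had members on both sides. Of 29 integrin and leukocyte surface genes 16 were higher in macrophages and 6 lower. Cd52, a leukocyte glycoprotein, stood at 1476, 1149 and 1606 in macrophages against 19.1, 2.89 and 5.35 in fibroblasts (7.46 ± 0.46, SE, adjusted p = 7.57e-11), whereas Vcam1, an adhesion ligand of leukocyte integrins, stood at 11.3, 76.4 and 44.5 against 238, 165 and 196 (−2.50 ± 0.50, SE, adjusted p = 0.000715). Of 21 scavenger and uptake receptors 8 were higher and 5 lower. Mrc1, the mannose receptor, had 175 reads in macrophages and 1 in fibroblasts, a ratio of 154 (95% interval 27.3 to 6119). Lrp1, a large endocytic receptor, was lower in macrophages, at 74.6, 91.4 and 56.4 against 319, 263 and 365 (−2.09 ± 0.33, SE, adjusted p = 4.27e-05). Of 27 guidance genes 12 were lower and 3 higher, the latter near the background of 12.2% called higher. Among the lower ones were the ligand Slit2 with 1.93 reads in macrophages and 139.0 in fibroblasts and its receptor Robo2 with 0 and 63. Sema4d, a semaphorin of leukocytes, had 51.5 and 0.

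Chemokines came from both cell types, but in different sets. Of 26 chemokine genes 19 were higher in macrophages and 5 lower, with a median of 3.52. Ccl6, a macrophage chemokine of rodents, stood at 6047, 8113 and 9698 in macrophages and 101, 113 and 51.7 in fibroblasts (6.52 ± 0.29, SE, adjusted p = 3.99e-13). Ccl2, which attracts monocytes, stood at 482, 637 and 276 against 30.02, 31.8 and 41.0 (3.65 ± 0.36, SE, adjusted p = 8.92e-08). Cxcl2, which attracts neutrophils, had 568.9 reads in macrophages and 1 in fibroblasts, a ratio of 501 (95% interval 89.5 to 19819.6). Ccl3, which draws leukocytes to inflamed tissue, and the B cell attractant Cxcl13 had 156 and 167 reads in macrophages and 0 in fibroblasts. The chemokines lower in macrophages were Cxcl14, Cxcl12, Ccl11, Ccl19 and Ccl27a. Cxcl14, of stroma and epithelium, stood at 6.78, 13.5 and 2.97 in macrophages against 461, 407 and 276 in fibroblasts (−5.61 ± 0.48, SE, adjusted p = 1.02e-08), and Cxcl12, which retains leukocytes, at 6.78, 13.4 and 2.97 against 68.0, 113 and 87.3 (−3.53 ± 0.58, SE, adjusted p = 8.09e-05). Ccl11, of eosinophil recruitment, and Ccl19, of lymphoid stroma, had 0 reads in macrophages and 17 and 16.5 in fibroblasts. Ccl27a, with 2 and 13.3 reads, was not called without macrophage library 1 (−1.93), macrophage library 3 (−2.08), fibroblast library 2 (−2.13) or fibroblast library 3 (−1.97).

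Cytokine genes were more often higher than lower in macrophages, with 11 of 23 called higher and 4 lower. Il1b (ENSMUSG00000027398, chromosome 2, 129364570 to 129371139, minus strand), interleukin 1 beta, stood at 1966, 1592 and 2319.8 in macrophages with no read in fibroblasts, at least 398-fold higher against the floor. Il1rn, its natural antagonist, had 211.3 reads and 1, a ratio of 186 (95% interval 33.0 to 7371), and Osm, oncostatin M, 114 and 1, a ratio of 100.4 (95% interval 17.7 to 3998). Among inflammatory mediators as a whole 15 of 20 were higher and none lower. Neutrophil genes took 0.807 to 1.71% of reads in the same macrophage libraries, and neutrophils also express Il1b, Il1rn and Cxcl2. Lower in macrophages were Kitl, Tnfsf13b, Tgfb3 and Tnfsf12. Kitl, stem cell factor, stood at 24.9, 16.2 and 2.97 in macrophages and 73.7, 54.9 and 138 in fibroblasts (−2.78 ± 0.63, SE, adjusted p = 0.0021), and Tnfsf13b, the B cell factor BAFF, at 20.3, 49.5 and 14.8 against 128, 142 and 94.5 (−2.23 ± 0.46, SE, adjusted p = 0.00102). Tgfb3, with 2 and 19 reads, was not called without macrophage library 2 (−2.22) or fibroblast library 2 (−2.31). Tnfsf12, at −1.37 ± 0.47 (SE, adjusted p = 0.0398), was not called without macrophage library 1 (−0.97), macrophage library 3 (−1.46), fibroblast library 2 (−1.39) or fibroblast library 3 (−1.17).

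Growth factor genes were mostly fibroblast genes, with 18 of 29 lower in macrophages and 3 higher, a median of −3.19 (bounded −3.01). The share called higher was near the background of 12.2%. Vegfd, a lymphatic growth factor, had 3 reads in macrophages and 258.0 in fibroblasts, a ratio of 97.7 (95% interval 33.1 to 477) for fibroblasts over macrophages. Fgf7 and Fgf10, which act on epithelium, had 3 and 0 reads in macrophages and 112.6 and 39 in fibroblasts. Angptl4, an inhibitor of lipoprotein lipase, stood at 11.3, 10.5 and 14.8 against 232, 251 and 180.0 (−4.07 ± 0.42, SE, adjusted p = 1.37e-07), and Ccn1, a matricellular protein, at 24.9, 40.5 and 32.7 against 243, 313 and 356 (−3.19 ± 0.36, SE, adjusted p = 5.63e-07). Bmp4 stood at 16.4, 19.9 and 15.3 against 166, 139 and 132 (−3.01 ± 0.42, SE, adjusted p = 9.92e-06), and Bmp5 and Bmp3 had 0 reads in macrophages. Higher in macrophages were Grn, Pdgfb and Gdf15. Grn, the lysosomal and secreted protein progranulin, stood at 351, 478 and 436 against 84.6, 159 and 91.3 (1.95 ± 0.32, SE, adjusted p = 7.15e-05). Pdgfb had 16 reads in macrophages and 1 in fibroblasts, and was not called without macrophage library 1 (2.14), macrophage library 2 (2.25), fibroblast library 2 (2.20) or fibroblast library 3 (1.96), and Gdf15, with 66 and 1, was not called without macrophage library 1 (2.55), macrophage library 2 (1.47), fibroblast library 1 (2.60), fibroblast library 2 (2.63) or fibroblast library 3 (2.98). Igf1, which both cell types are known to make, stood at 138, 199 and 104 in macrophages and 139, 68.4 and 119 in fibroblasts and was not called (adjusted p = 0.441). Of 9 binding proteins and proteases of the insulin-like growth factors 6 were lower and none higher, among them Igfbp3 at 11.3, 22.5 and 8.73 against 625, 303 and 597 (−5.10 ± 0.42, SE, adjusted p = 5.82e-09). Of 5 Wnt ligand genes 3 were lower, among them Wnt2 with 0 and 26.4 reads and Wnt5a with 1 and 32.

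Of 56 ligand and receptor pairs listed, 43 had both members in the table. Macrophages expressed more of the ligand and less of the receptor in 4, which are Osm with Osmr, Il1b and Il1a with Il1r1, and Grn with Sort1. The opposite held for 3, Cxcl12 with Cxcr4, Gas6 with Axl and C3 with C3ar1. In 8 pairs both members were higher in macrophages, among them Ccl2 and Ccr2, Ccl3 and Ccr1, and Spp1 and Cd44. In 5 both were lower, namely Fgf2 and Fgfr1, Fgf10 and Fgfr2, Wnt2 and Fzd4, Bmp4 and Bmpr1a, and Col1a1 and Ddr2. The other 23 had a member that was not called. Csf1 was among those, at 11.3, 10.5 and 8.91 in macrophages and 19.1, 14.4 and 35.7 in fibroblasts from 6 and 14.5 reads (adjusted p = 0.29), although Csf1r was higher. Pdgfa, a ligand of the fibroblast gate receptor, stood at 15.8, 19.5 and 2.97 against 19.1, 2.89 and 41.0 (adjusted p = 0.771). Tnf, which is in 1 of the pairs higher on both sides and had 8 reads in macrophages and 0 in fibroblasts, was not called without macrophage library 2 (1.7002), macrophage library 3 (1.77), fibroblast library 1 (1.96), fibroblast library 2 (1.99) or fibroblast library 3 (1.75). Il1a was not called without macrophage library 2 (2.23), and Fgfr2 not without macrophage library 2 (−2.23), fibroblast library 1 (−1.94) or fibroblast library 3 (−2.23). In the same contrast in depleted mice Il1r1 at −2.05, Fgfr2 at −0.70 and Fzd4 at −1.10 were not called (limma, adjusted p = 0.0644, 0.507 and 0.276). Osm, Osmr, Il1b, Il1a, Grn and Sort1 were called there in the same direction as in control mice. These are levels of RNA in sorted cells, and no contact or signal between cells was measured.

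**Figure D4:**
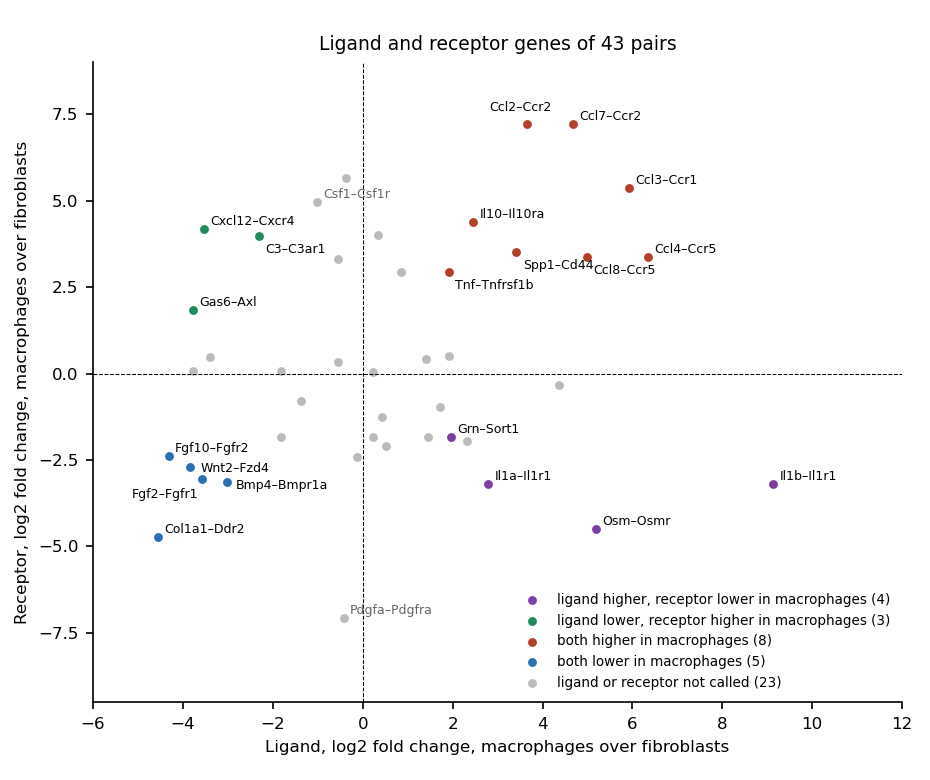
log2 fold change of the receptor gene (vertical axis) against that of the ligand gene (horizontal axis) for 43 pairs, both as macrophages over fibroblasts. In 4 pairs the ligand was higher and the receptor lower in macrophages (lower right), in 3 the reverse (upper left), and 23 pairs had a member that was not called.

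MHC class II presentation was a programme of the macrophages. Of 15 genes of MHC class II presentation 13 were called higher, with a median of 5.01 (bounded 4.61), and the list took 7.05 to 11.2% of reads in macrophages and 0.0408 to 0.0644% in fibroblasts. H2-Aa and H2-Ab1, the chains of the I-A molecule, stood at 5115, 6685 and 5827 and 6863, 12983 and 10235 in macrophages against 24.6, 43.3 and 23.2 and 51.9, 66.4 and 33.9 in fibroblasts. Their differences were 7.60 and 7.60 on the log2 scale (adjusted p = 4.66e-14 and 5.19e-14). Cd86, a co-stimulatory ligand, had 83 reads against 0. Ciita, the activator of this gene set, had 7 and 0 reads and was not called (adjusted p = 0.145). Cd40 was the one member lower in macrophages, at 15.8, 26.1 and 26.9 against 145, 56.0 and 58.8 (−1.76 ± 0.49, SE, adjusted p = 0.0109), and was not called without fibroblast library 1 (−1.32). MHC class I genes differed less, with 7 of 13 higher and a median of 1.71. B2m, the shared light chain, stood at 10729, 7780.2 and 12922 in macrophages and 2711, 2636 and 4264 in fibroblasts (1.71 ± 0.24, SE, adjusted p = 1.35e-05).

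Lysosomal genes were partly shared. Of 36 genes 19 were higher in macrophages, 5 lower and 12 not called, with a median of 1.32. The share called lower was near the background of 11.0%, whereas 12.2% of all genes were called higher. Ctsc, the cathepsin that activates granule proteases, stood at 784, 1601 and 1636 against 95.5, 54.9 and 38.3 (4.41 ± 0.35, SE, adjusted p = 3.62e-09), and Ctsh at 432, 661 and 731 against 24.6, 37.6 and 12.5 (4.65 ± 0.39, SE, adjusted p = 8.11e-09). Psap, the precursor of the saposins, differed less, at 1973, 1619.8 and 2082 against 461, 459 and 661 (1.85 ± 0.24, SE, adjusted p = 5.27e-06). Ctsl was lower in macrophages, at 38.4, 49.4 and 44.5 against 177, 159 and 308 (−2.20 ± 0.37, SE, adjusted p = 0.000104), as was Gaa, the acid alpha-glucosidase, at 6.78, 10.5 and 20.8 against 62.8, 49.1 and 90.9 (−2.41 ± 0.55, SE, adjusted p = 0.00231). Lamp1, of the lysosomal membrane, stood at 454, 388 and 395 in macrophages and 309, 368 and 367 in fibroblasts and was not called (adjusted p = 0.554). Of the 8 NADPH oxidase genes 7 were higher in macrophages. Cybb, the catalytic subunit of the phagocyte enzyme, stood at 919, 551 and 726 against 13.6, 14.4 and 1.78 (6.38 ± 0.52, SE, adjusted p = 4.21e-09). Nox4, another catalytic subunit, went the other way, at 2.26, 13.5 and 8.85 against 275, 217 and 390.4 (−5.21 ± 0.52, SE, adjusted p = 1e-07).

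Complement was split within the pathway. The recognition chains C1qa, C1qb and C1qc and properdin (Cfp) were higher in macrophages, and 9 of 17 components were lower. C1qb, with 1323.0 reads in macrophages and 2 in fibroblasts, had a ratio of 582 (95% interval 161 to 4814). Lower were the proteases that C1q activates, C1ra, C1rb and C1s1, with 4, 1 and 2 reads in macrophages and 52.0, 35.7 and 133.2 in fibroblasts. C3, the central component, stood at 83.6, 40.5 and 116 in macrophages against 314, 298 and 526 in fibroblasts (−2.31 ± 0.38, SE, adjusted p = 7.56e-05). C2 and C4b, which form the classical C3 convertase, were at −3.28 ± 0.67 and −3.53 ± 0.57 (SE, adjusted p = 0.000903 and 6.32e-05).

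Lipid mediator genes leaned to macrophages. Of 21 genes of prostanoid and leukotriene synthesis 11 were higher and 3 lower, with a median of 2.34. The share called lower was near the background of 11.0%, whereas 12.2% of all genes were called higher. Alox5ap, which hands arachidonic acid to 5-lipoxygenase, stood at 1498, 1707 and 2598 in macrophages against 19.1, 31.8 and 8.91 in fibroblasts (6.65 ± 0.38, SE, adjusted p = 2.62e-11), and Alox5 itself had 65 reads against 0. Ptgs2, the inducible cyclooxygenase, had 239.0 and 1 reads, a ratio of 210.4 (95% interval 37.4 to 8345). Ptgis, which makes prostacyclin, was lower in macrophages, at 6.78, 4.49 and 14.8 against 177, 251 and 337 (−4.82 ± 0.48, SE, adjusted p = 1.04e-07). Of 20 genes of lipid and cholesterol handling 9 were higher and none lower. Abcg1, a cholesterol exporter, stood at 2706, 4286 and 3483 against 112, 113 and 48.1 (5.32 ± 0.31, SE, adjusted p = 3.88e-11), whereas Apoe, at 2318, 4837 and 3785 against 3111, 2638 and 1727, was not called (adjusted p = 0.179). Of 12 iron and haem genes 5 were higher and 2 lower. Slc11a1, a metal transporter of phagosomes, had 125.8 reads in macrophages and 2.38 in fibroblasts, and Cp, the ferroxidase ceruloplasmin, stood at 11.3, 16.5 and 14.8 against 379, 332 and 316 (−4.51 ± 0.38, SE, adjusted p = 7.98e-09).

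The extracellular matrix was the programme of the fibroblasts. Of 13 fibrillar and associated collagens 10 were lower in macrophages and none higher, with a median of −4.56, and they took 0.00422 to 0.0106% of reads in macrophages and 0.308 to 0.428% in fibroblasts. Col1a2, a chain of collagen type I, was at 11.3, 22.3 and 14.8 against 925, 731 and 893 (−5.67 ± 0.35, SE, adjusted p = 7.57e-11), and Col6a1 had 3 and 261 reads. Of 28 matrix glycoproteins and elastic fibre genes 23 were lower and none higher. Eln, tropoelastin, had 2 reads in macrophages and 388.6 in fibroblasts, a ratio of 221 (95% interval 60.8 to 1831) for fibroblasts over macrophages, and Ltbp4, needed for elastic fibre assembly, 3 and 440.7. Fn1, fibronectin, was less one-sided, at 202, 149 and 266 against 636, 553 and 979 (−1.80 ± 0.30, SE, adjusted p = 9.19e-05), and Thbs1, thrombospondin 1, stood at 179, 100.4 and 122 against 112, 251 and 241 and was not called (adjusted p = 0.317). Of 17 basement membrane genes 12 were lower. Lamb1, a laminin chain, stood at 2.26, 13.5 and 2.97 against 197, 153 and 219 (−5.04 ± 0.57, SE, adjusted p = 5.67e-07).

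Of 18 proteoglycan genes 13 were lower in macrophages and 2 higher, the latter near the background of 12.2% called higher. Bgn, biglycan, stood at 6.78, 52.4 and 14.8 in macrophages and 2477, 1742 and 2279.6 in fibroblasts (−6.84 ± 0.46, SE, adjusted p = 3.23e-10). The 2 higher were Srgn, the granule proteoglycan of leukocytes, at 1810.4, 1592 and 1766 against 19.1, 14.4 and 5.35 (7.10 ± 0.38, SE, adjusted p = 9.98e-12), and Sdc3, with 44 and 1 reads. Of 23 collagen processing genes 15 were lower and none higher. Serpinh1, the collagen chaperone HSP47, stood at 2.26, 49.4 and 2.97 against 1352, 1104 and 604 (−6.80 ± 0.67, SE, adjusted p = 8.9e-08), and Lox, which crosslinks collagen and elastin, at 2.26, 19.5 and 2.97 against 319, 552 and 725 (−6.29 ± 0.56, SE, adjusted p = 2.1e-08). Proteases were divided, with 6 of 23 higher in macrophages and 9 lower. Mmp12, the macrophage elastase, stood at 206, 329 and 169 against 13.7, 2.89 and 8.95 (4.77 ± 0.52, SE, adjusted p = 3.31e-07), and Mmp8 and Mmp9, which neutrophils also carry, had 115.8 and 128.0 reads against 1 and 0. Mmp2 had 0 reads in macrophages and 138 in fibroblasts, Mmp3 had 3 and 307.0, and the inhibitor Timp3 stood at 6.78, 7.49 and 8.91 against 389, 379.8 and 573 (−5.66 ± 0.40, SE, adjusted p = 6.22e-10).

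**Figure D5:**
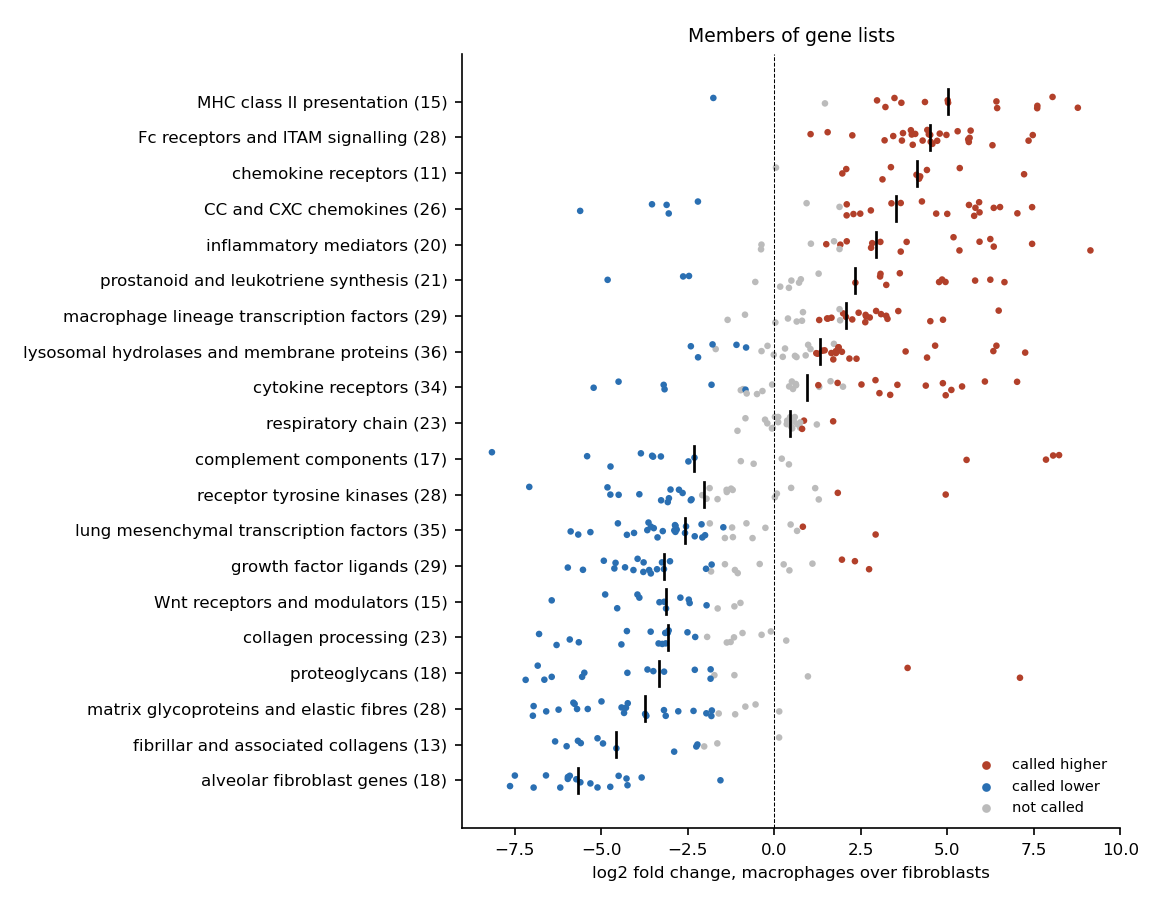
log2 fold change, macrophages over fibroblasts, of each member (points) of 20 gene lists with the number analysed in brackets, and the list median (bar). MHC class II, Fc receptor and chemokine receptor genes lay to the right, collagens, matrix glycoproteins and alveolar fibroblast genes to the left, and the respiratory chain near 0; complement, cytokine receptors and chemokines had called members on both sides.

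The cytoskeleton separated the cell types as well. Of 25 haematopoietic signalling and cytoskeleton genes 23 were higher and none lower, with a median of 5.45. Coro1a, an actin regulator of leukocytes, stood at 658, 626 and 959 in macrophages against 13.6, 14.4 and 5.35 in fibroblasts (6.02 ± 0.40, SE, adjusted p = 2.62e-10), and Lcp1, plastin of leukocytes, at 1136, 1147 and 1155 against 29.5, 16.6 and 18.4 (5.71 ± 0.32, SE, adjusted p = 2.07e-11). Of 21 muscle-type and adhesion genes 12 were lower, among them Cald1, caldesmon, at 29.4, 13.5 and 8.91 against 626, 592 and 615 (−5.23 ± 0.40, SE, adjusted p = 1.8e-09), and Csrp1 at 29.4, 31.5 and 38.6 against 598, 529 and 590.0 (−4.08 ± 0.32, SE, adjusted p = 2.51e-09). Another 8 were not called.

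Of 23 respiratory chain genes 3 were called higher and none lower in control mice, a share near the background of 12.2%, with a median of 0.46. Of 30 ribosomal protein genes 22 were called higher and none lower in depleted mice, with a median of 0.83, and 6 were called higher and none lower in control mice, with a median of 0.55. The difference between depleted and control mice was not tested for the list. Of 19 glycolysis genes 10 were higher and 1 lower, with a median of 1.51 (bounded 1.24). Hk2 and Hk3, hexokinase genes, had 28 and 19 reads in macrophages and 0 in fibroblasts, and Eno1 stood at 509, 968 and 1262 against 210.1, 184 and 123 (2.34 ± 0.33, SE, adjusted p = 1.08e-05). Of 22 immediate early genes 11 were higher and 1 lower, with a median of 1.20. Fos stood at 2519, 2564 and 2236 in macrophages and 1045, 1139.5 and 1011 in fibroblasts (1.19 ± 0.22, SE, adjusted p = 0.000296), while Jun, at 61.0, 86.4 and 80.2 against 84.5, 83.8 and 119, was not called (adjusted p = 0.573). Of 20 interferon-stimulated genes 6 were higher and none lower, and their summed share of reads ran the other way, 0.327 to 0.483% in macrophages and 0.488 to 0.639% in fibroblasts. The abundant Ifitm2 and Ifitm3 were not called. Of 15 cell cycle genes 8 were called higher from low reads, among them Cdk1 with 13 and 0.

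The same contrast was fitted in depleted mice, whose 6 lung libraries share none with the controls; this fit was added after the control result was known. There 1479 genes (12.5% of 11867) were called higher in macrophages and 1252 (10.6%) lower. Of the 1452 genes called higher in control mice 1065 (73.3%) were called higher in depleted mice as well, which is 72.0% of the calls there. Of the 1305 called lower 848 (65.0%) were, which is 67.7% of the calls there. The sign was the same for 97.5% of the genes called higher and 98.0% of those called lower in control mice, and 1 gene, G0s2, was called in opposite directions. In depleted mice 19 of 20 macrophage identity genes were again called higher and all 18 alveolar fibroblast genes lower. The Fc receptor list again had all 28 higher, and the chemokine receptor list 6 of 11 in place of 10.

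The difference between the contrasts was tested as an interaction over all 12 lung libraries. It called 2 genes (0.0169%), and 653 (5.5%) had an unadjusted p below 0.05. G0s2 (ENSMUSG00000009633, chromosome 1, 193272161 to 193273217, minus strand), an inhibitor of adipose triglyceride lipase, had a mean signal of 94.3 ± 16.9 in macrophages and 411 ± 149 in fibroblasts of depleted mice, and 808 ± 199 in macrophages and 348 ± 78.2 in fibroblasts of control mice (SD, n = 3 each). The macrophage to fibroblast difference was −2.06 in depleted and 1.21 in control mice, an interaction of −3.27 ± 0.41 (SE, adjusted p = 9.75e-05). Ptgs2, the inducible cyclooxygenase, had a mean of 19.4 ± 9.72 in macrophages and 7.11 ± 4.48 in fibroblasts of depleted mice, and 347 ± 68.8 in macrophages and 3.66 ± 1.47 in fibroblasts of control mice (SD, n = 3 each), and an interaction of −4.90 ± 0.85 (SE, adjusted p = 0.0175). Without a variance trend neither gene was called (adjusted p = 0.246 for G0s2 and 0.122 for Ptgs2). G0s2 was called in all other fits, whereas Ptgs2 was not called after quantile normalisation (−4.71, adjusted p = 0.0895) or without control macrophage library 1 (−4.79), 2 (−5.08) or 3 (−4.83), depleted macrophage library 3 (−4.44) or depleted fibroblast library 3 (−4.48). The count of called genes was 1 without control macrophage library 1 or 3, depleted macrophage library 3 or depleted fibroblast library 3, and 6 without depleted fibroblast library 2. The next in order, Retnlg at −2.75, Cxcr2 at −3.46 and Stk17b at −2.80, were not called (adjusted p = 0.098, 0.098 and 0.108). On the positive side none passed, with Zfp429 at 3.41, Aprt at 2.02, Sirt4 at 3.85, Pgpep1 at 3.51 and Srxn1 at 3.66 (adjusted p from 0.522 to 0.586), 4 of them from 12 reads or fewer in each group. Neutrophil genes moved with these values: 10 of 12 were called higher in depleted mice with a median of 2.60, against 12 of 12 and 5.10 in control mice, and Retnlg and Cxcr2 are on that list. Their part in the interactions was not tested.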

How the data were processed

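Libraries came from amplified RNA of sorted cells, read from 1 end, per the labels' protocols. The tools named in the submitters' processing notes are RSEM 1.7.1, limma 3.46, CASAVA 1.8 and cutadapt 1.7.1, and the build is mm10. The deposited table holds a normalised signal per gene, which from its values is the authors' estimated reads plus 0.5 times a constant per library. Too few values came out as whole reads (tolerance 0.01) for a count model. Here limma 3.58.1 in R 4.3.3 was fitted to log2(signal + 1.014), a pseudocount set from the mean library total, with a variance trend, two-sided tests and Benjamini-Hochberg adjustment over 11867 genes at 0.05. A fold change on this scale understates the change of low genes. A filter on low values removed no gene. The main fit took the 6 control libraries alone, and the interaction all 12 lung libraries. Genes with 0 reads in a group have a bound against 3 reads over the group, and genes with 1 to 3 reads a ratio with an exact Clopper-Pearson interval at 95%, which covers counting error only. On data simulated with a fixed dispersion the fit recovered 82% of 4-fold and 12% of 2-fold changes, with 4 false calls. The changed genes were drawn from well-detected ones only, so these shares do not describe genes with few reads. An exact permutation test of 3 against 3 cannot go below 0.10 and was not used. Alternatives covered the pseudocount, filter, scaling, variance model, depth, replicate block and leaving out each library. The genes named are the 15 of lowest p per direction, up to 6 with the lowest p per direction and list, members called against their list, pair members, gate genes and the 5 per direction with the lowest p in the interaction. Some genes that this rule covers are not reported here. Any other gene named was chosen after its values were seen. The members and gene lists were chosen with earlier results of these data known. Listed genes without a row were not analysed here.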

Additional observations from a re-analysis of the deposited data

Results flagged for a closer look

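The macrophage to fibroblast difference of G0s2 and of Ptgs2 passed the test of a change between depleted and control mice. The interaction, depleted minus control, was −3.27 on the log2 scale for G0s2 (limma, adjusted p = 9.75e-05) and −4.90 for Ptgs2 (adjusted p = 0.0175). G0s2 had a macrophage to fibroblast log2 fold change of −2.06 in depleted mice and 1.21 in control mice, and its signal in macrophages was 114, 83.8 and 85.4 in depleted mice against 711, 676 and 1036 in control mice. Ptgs2 had a log2 fold change of 1.34 in depleted mice and 6.24 in control mice, with a macrophage signal of 21.5, 27.9 and 8.83 in depleted mice against 396, 268 and 377 in control mice. For both genes the 3 macrophage libraries of depleted mice lay below the 3 of control mice. Neither was called when the fit had no variance trend (adjusted p = 0.246 for G0s2 and 0.122 for Ptgs2). Ptgs2 was also not called after quantile normalisation (adjusted p = 0.0895) or in 5 of the 12 fits that left out 1 library.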

How the results depend on the processing

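The 2757 calls kept their size within 1.5-fold under 13 of 15 alternatives that kept all libraries, at 1974 to 2943 calls, and 0 genes were called in the opposite direction in any of them. The fit without a filter, counted among the 13, is the same as the main fit, since the filter removed no gene. Under an adjusted p below 0.01, 1809 genes were called, 812 of them lower. Against a log2 limit of 1 there were 1240, 686 higher and 554 lower. With a mean of at least 5 estimated reads 5426 genes were tested and 812 were called lower. Leaving out 1 library gave 2255 to 2560 calls, 1185 to 1341 higher and 1029 to 1219 lower. Correlations of deviations from the group means were −0.045, 0.0258 and −0.0325 for same-numbered libraries. With 3 libraries per group these values cannot show whether same-numbered libraries came from the same mice. With the replicate number as a block 2683 genes were called. The interaction called 12 genes with a 10 times larger pseudocount, 1 after quantile normalisation, 0 without a variance trend, 2 with the block and 1 to 6 without 1 library; the cause was not tested. Values of genes near 0 that were never called changed sign. Acta2 was at 0.417 after thinning to equal depth and −0.570 to 0.272 without 1 library, Lamp1 at −0.0869 after quantile normalisation, and Mertk at −0.0379 with library weights, −0.0350 with voom, −0.0060 thinned and −0.212 to 0.424 without 1 library. Pdgfa was at 0.126 thinned and −1.38 to 0.326 without 1 library, Pecam1 at 0.0302 with library weights and −0.344 to 0.425 without 1 library, Ramp2 at −1.17 to 0.734 and Aprt at −0.0535 to 0.42 without 1 library. The median of erythroid and platelet genes was −2.69 to 0.578 without 1 library. Of 203 named genes that passed the test, 190 passed it whichever library was left out. At this depth many genes rest on a few reads, and small differences were not detectable.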

Other observations

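Some genes varied widely among libraries of the same group. Hba-a2, a haemoglobin chain of red cells, had a signal of 862, 153 and 1.78 in fibroblast libraries 1, 2 and 3. Ly6c2, of classical monocytes, stood at 313, 67.1 and 429 in macrophage libraries 1, 2 and 3.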
